A study of Mus musculus with 32 samples.

Results

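Glycolysis and hypoxia-response genes were followed while mouse embryonic stem cells left their ground-state media. The list holds 36 of the 31053 genes counted, chosen by name as members of these pathways. It comprises 16 enzymes of glycolysis, 6 genes of lactate production and of glucose and lactate transport, 4 kinases that switch the pathway, and 10 genes of the hypoxia response. RNA came from E14, an established line of embryonic stem cells, with 2 libraries in each of 16 groups, and was sequenced from the 3' end of poly(A) transcripts. All cells were grown on gelatin in the serum-free medium N2B27. Cells of the 2i course started with 2 inhibitors, 3 uM CHIR99021 (which blocks the kinase GSK3) and 1 uM PD0325901 (which blocks the kinase MEK). Cells of the 2iL course had the same inhibitors and the cytokine LIF. They were seeded sparsely, as single cells, and a day later the additions were withdrawn by a change to plain N2B27. The groups of the 2i course are 0 h (before withdrawal) and 12, 24, 36, 48, 60, 72 and 84 h, and those of the 2iL course are 0 h and 24, 36, 48, 60, 72, 84 and 96 h. None of these groups stayed in its starting medium for the same time, so withdrawal cannot be told apart from time in culture. The labels do not say whether the 2 libraries of a group came from separate cultures, so p-values measure the spread between libraries, which may be technical.

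Glycolysis splits glucose into pyruvate. Hexokinases trap the sugar, phosphofructokinase is the main control point, and lactate dehydrogenase and lactate exporters remove the product when pyruvate is not sent into mitochondria. Many steps have isoforms from separate genes, and several of these are targets of HIF, a transcription factor that the EGLN prolyl hydroxylases mark for destruction while oxygen is present. Ground-state stem cells are known to use both glycolysis and respiration, and the primed state that follows is known for heavier use of glycolysis.

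Levels are in CPM, the counts per 1000000 counts in genes, scaled by edgeR's TMM factors. A gene is said to have risen or fallen where edgeR's quasi-likelihood test gave an adjusted p under 0.05 over all 12556 genes tested. Changes are log2 fold changes with their standard errors, from 2 libraries a group. Ratios of low counts use library sizes scaled by the same factors. Of the 36 members 34 passed the filter on low counts, and Pfkfb4 and Ankrd37 did not. The libraries held 1122648 to 3438514 counts, apart from 2iL 36 h replicate 2 with 7298, which was left out, and the members took 0.253% to 0.542% of them. Only uniquely aligned reads were counted. By name, 7 members have copies or relatives elsewhere in the genome (Aldoa, Gapdh, Pgk1, Pgam1, Eno1, Ldha and Ero1l). For Ero1l this is the related gene Ero1lb. Likeness of sequence was not checked, so the levels of these members are uncertain. Strand use in counting is not given in the sources used here, and 14 members overlap a gene on the other strand. On the same strand 7 members overlap a gene (Pfkm, Pkm, Slc2a1, Slc2a3, Slc16a1, Pfkfb3 and Hif1a). All 10 markers of pluripotent stem cells had counts in every group, with a summed level of 736 to 1969 CPM. Most of them fell, which the sum does not show. At 2i 84 h against 0 h 9 fell and 1 rose, with a median log2 change of -4.37 (16.6% of all tested genes fell). At 2iL 96 h against 0 h 7 fell and 2 rose, with a median of -2.46 (20.1% of all tested genes fell). The 5 early neural markers summed to 41.9 to 48.1 CPM at 2iL 0 h and 1120 to 1231 CPM at 2iL 96 h, and to 125 to 133 CPM at 2i 0 h and 1804 to 1819 CPM at 2i 84 h. In bulk RNA, fewer cells of a kind and less RNA per cell cannot be told apart. An earlier analysis of these data found 4 libraries to stand apart from their partners (the first library of 2iL 48 h and of 2iL 96 h, and the second of 2iL 84 h and of 2i 12 h), and results were also computed without them.

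**Figure D1:**
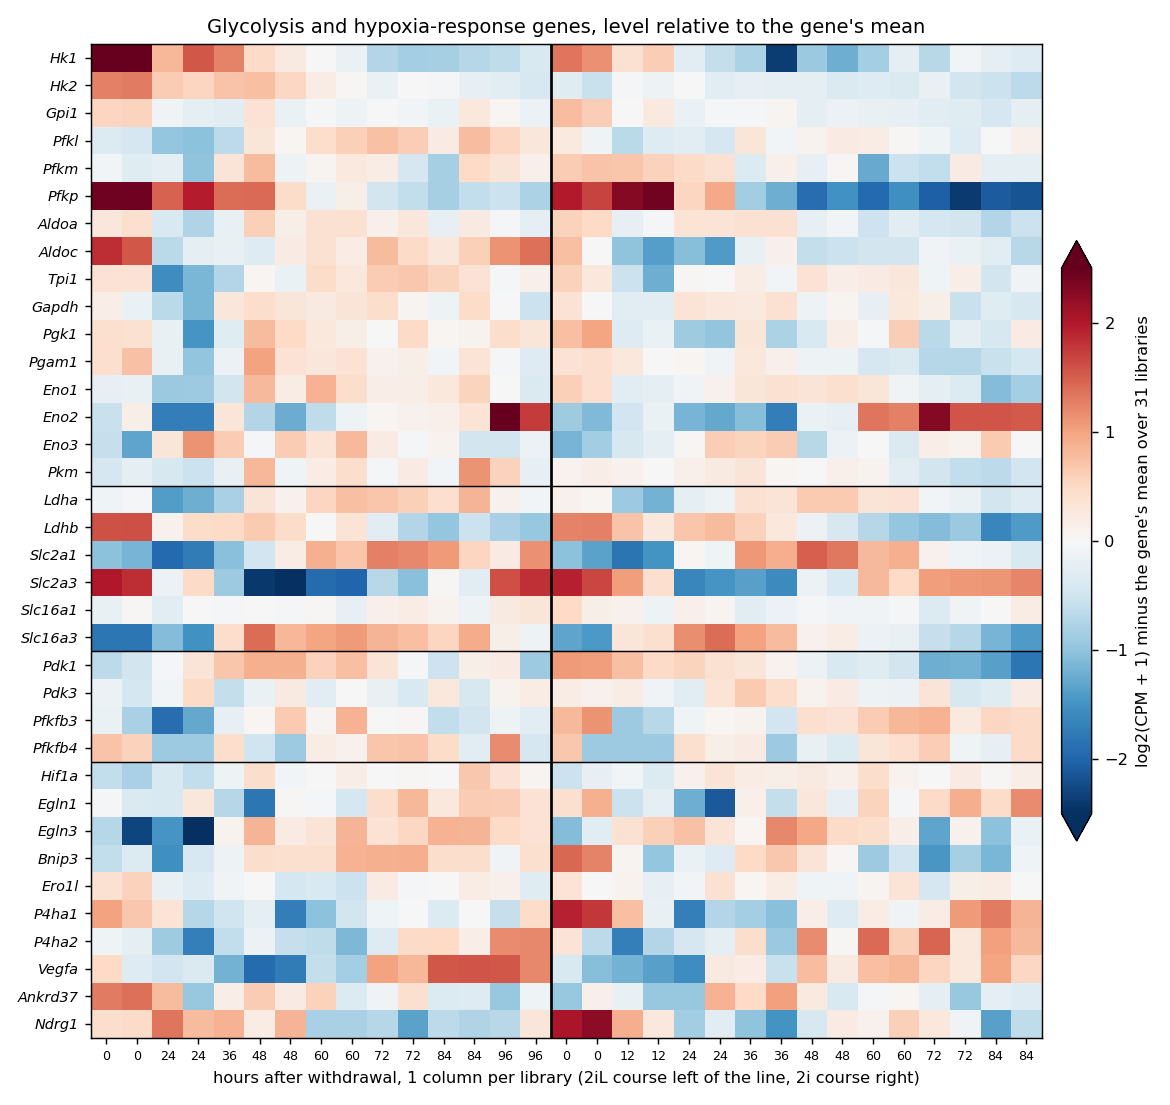
Level of each of the 36 members (rows, ordered by role) in each of the 31 libraries used (columns, by hours after withdrawal, 2iL course on the left and 2i course on the right). Colour is log2(CPM + 1) minus the gene's mean over the 31 libraries. Pfkp, Ldhb and Hk1 are high at the start of both courses and low at the end, Slc2a3 is low in mid-course, and Slc16a3 and Slc2a1 are high there.

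Before withdrawal, 5 of the 34 tested members were higher in 2i than in 2iL (3.75% of all tested genes were) and 3 were lower (4.24% of all tested genes were). The median log2 difference was 0.21 over the members and 0.01 over all tested genes. The count of higher genes was 3 with 2iL 0 h replicate 2 left out, and 11 with the 4 deviating libraries left out. Bnip3, Ndrg1 and Pdk1 were among the higher genes, and both hexokinases were among the lower. Of the 9 tested genes of the hypoxia response 2 were higher and 0 were lower. Ankrd37, which was not tested, had lower counts in 2i, given below. Bnip3, a mitophagy receptor, stood at 61.3 and 53.7 CPM in 2i and at 14.1 and 17.2 CPM in 2iL (1.88 ± 0.30, adjusted p = 4.2e-05). Ndrg1, a stress-response gene, stood at 36.01 and 41.1 CPM against 11.2 and 11.5 CPM (1.76 ± 0.32, adjusted p = 0.00031). Pdk1, a kinase that shuts pyruvate dehydrogenase, stood at 88.6 and 87.05 CPM against 26.1 and 30.01 CPM (1.65 ± 0.25, adjusted p = 2.4e-05). In each of these genes both 2i libraries lay above both 2iL libraries. Pfkfb3, which makes the activator of phosphofructokinase, was also higher in 2i (1.55 ± 0.35, adjusted p = 0.0035), a call lost on leaving out 2iL 0 h replicate 2 (change 1.2, adjusted p = 0.12). Eno1, the common enolase, was higher in 2i (0.71 ± 0.19, adjusted p = 0.012), a call lost on leaving out 2iL 0 h replicate 1 (change 0.70, adjusted p = 0.11), 2iL 0 h replicate 2 (change 0.69, adjusted p = 0.12) or 2i 0 h replicate 1 (change 0.61, adjusted p = 0.17).

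Hk2, the inducible hexokinase, stood at 171 and 143 CPM in 2i and at 510.2 and 525 CPM in 2iL (-1.72 ± 0.15, adjusted p = 1.4e-09). Hk1, the widely expressed hexokinase, stood at 40.8 and 35.6 CPM against 95.4 and 92.2 CPM (-1.29 ± 0.25, adjusted p = 0.0005). The 2 media did not overlap for either gene. Aldoc, the brain-type aldolase, stood at 16.2 and 9.31 CPM against 35.7 and 29.1 CPM (-1.31 ± 0.28, adjusted p = 0.0018), a call lost on leaving out 2i 0 h replicate 2 (change -1.0, adjusted p = 0.072). The glucose transporter genes Slc2a1 and Slc2a3 differed between the media by -0.07 (adjusted p = 0.94) and -0.11 (adjusted p = 0.83).

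At the first time after withdrawal much of the list had fallen. At 12 h of the 2i course 12 of 34 members had fallen (5.36% of all tested genes had) and 1 had risen (5.42% of all tested genes had), with a median log2 change of -0.59 over the members and -0.02 over all tested genes. At 24 h of the 2iL course 13 had fallen (5.92% of all tested genes had) and 1 had risen (5.65% of all tested genes had), with medians of -0.75 and -0.03. In both courses 8 genes fell, 66.7% of those that fell in 2i and 61.5% of those that fell in 2iL. They are Gpi1, Aldoa, Aldoc, Tpi1, Eno1, Ldha, Ldhb and Slc2a3, and they span the pathway from glucose entry to lactate. Bnip3, Ndrg1, P4ha1 and Pfkfb3 also fell in the 2i course, and in the 2iL course they changed by -0.46, 0.69, -0.97 and -1.44 without passing the threshold. Hk1, Hk2, Pfkp, Gapdh and Pgam1 fell in the 2iL course, and in the 2i course they changed by -0.78, 0.35, 0.51, -0.49 and -0.24 without passing it. The first times differ, 12 h and 24 h, so these values are placed side by side and were not tested against each other.

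Ldha, the lactate dehydrogenase subunit that favours lactate, stood at 559 and 537 CPM at 2i 0 h and at 276 and 229 CPM at 12 h (-1.11 ± 0.15, adjusted p = 6.7e-06). In the 2iL course it stood at 482 and 501 CPM at 0 h and at 197 and 222 CPM at 24 h (-1.23 ± 0.16, adjusted p = 1e-06). In both courses each early library lay below each 0 h library. Tpi1, triosephosphate isomerase, went from 111 and 89.2 CPM to 50.6 and 31.2 CPM in 2i (-1.27 ± 0.21, adjusted p = 9.3e-05) and from 94.98 and 95.3 CPM to 24.7 and 33.1 CPM in 2iL (-1.73 ± 0.22, adjusted p = 1.5e-06). Slc2a3, the high-affinity glucose transporter GLUT3, went from 428 and 352 CPM to 229.6 and 147 CPM in 2i (-1.04 ± 0.20, adjusted p = 0.00049) and from 446 and 399 CPM to 100.2 and 155 CPM in 2iL (-1.74 ± 0.20, adjusted p = 2.8e-07). The groups did not overlap for these genes either. Ldha, Tpi1, Slc2a3 and Bnip3 (-1.70 ± 0.32, adjusted p = 0.00047) are the 4 of the 12 falls in 2i that kept their call whichever library was left out. In 2iL 8 of the 13 falls did so, namely Ldha, Tpi1, Slc2a3, Hk1 (-1.32 ± 0.26, adjusted p = 0.00077), Hk2 (-0.70 ± 0.15, adjusted p = 0.0017), Aldoa (-0.90 ± 0.17, adjusted p = 0.00033), Aldoc (-2.31 ± 0.35, adjusted p = 2.3e-05) and Ldhb (-1.31 ± 0.19, adjusted p = 1.3e-05).

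The other 8 falls in 2i were lost with 1 or more single libraries left out, and without 2i 0 h replicate 1 the count was 6. Aldoc (-1.84 ± 0.44, adjusted p = 0.005) was lost on leaving out 2i 0 h replicate 1 (change -1.36, adjusted p = 0.15) or 2i 12 h replicate 2 (change -1.65, adjusted p = 0.056). P4ha1, a collagen prolyl hydroxylase (-1.51 ± 0.41, adjusted p = 0.013), was lost on leaving out 2i 0 h replicate 1 (change -1.43, adjusted p = 0.093) or 2i 12 h replicate 2 (change -1.15, adjusted p = 0.17). Ndrg1 (-1.55 ± 0.35, adjusted p = 0.0031) was lost on leaving out 2i 12 h replicate 2 (change -1.29, adjusted p = 0.06), and Pfkfb3 (-1.98 ± 0.43, adjusted p = 0.0023) on leaving out 2i 12 h replicate 1 (change -1.83, adjusted p = 0.053). The abundant enzymes among them changed by less than 1 on the log2 scale. Ldhb (-0.73) was lost on leaving out 2i 0 h replicate 1 (change -0.75, adjusted p = 0.064), 2i 0 h replicate 2 (change -0.71, adjusted p = 0.059) or 2i 12 h replicate 2 (change -0.53, adjusted p = 0.19). Aldoa (-0.67) was lost on leaving out 2i 0 h replicate 1 (change -0.63, adjusted p = 0.074) or 2i 12 h replicate 1 (change -0.59, adjusted p = 0.087), Gpi1 (-0.59) on leaving out 2i 0 h replicate 1 (change -0.52, adjusted p = 0.15) or 2i 12 h replicate 1 (change -0.46, adjusted p = 0.19), and Eno1 (-0.78) on leaving out 2i 0 h replicate 1 (change -0.69, adjusted p = 0.095) or 2i 12 h replicate 1 (change -0.75, adjusted p = 0.072). In 2iL, Pgam1 (-1.10) was lost on leaving out 2iL 24 h replicate 2 (change -0.76, adjusted p = 0.078), and Gpi1 (-0.72) on leaving out 2iL 24 h replicate 2 (change -0.64, adjusted p = 0.061). Pfkp (-0.70) was lost on leaving out 2iL 0 h replicate 1 (change -0.70, adjusted p = 0.13), 2iL 0 h replicate 2 (change -0.74, adjusted p = 0.1) or 2iL 24 h replicate 1 (change -0.51, adjusted p = 0.26), Gapdh (-0.91) on leaving out 2iL 0 h replicate 1 (change -0.73, adjusted p = 0.24), 2iL 24 h replicate 1 (change -1.24, adjusted p = 0.05) or 2iL 24 h replicate 2 (change -0.69, adjusted p = 0.28), and Eno1 (-0.73) on leaving out any 1 of 4 libraries (-0.78 to -0.72, adjusted p 0.063 to 0.097). DESeq2 called 11 falls in 2iL (4.04% of all tested genes fell), with Pfkp (-0.70, adjusted p = 0.078) and Gapdh (-0.91, adjusted p = 0.064) not called. A fit of the 2iL libraries alone ended the calls of Pfkp (-0.70, adjusted p = 0.12), Gapdh (-0.91, adjusted p = 0.081) and Eno1 (-0.73, adjusted p = 0.073).

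**Figure D2:**
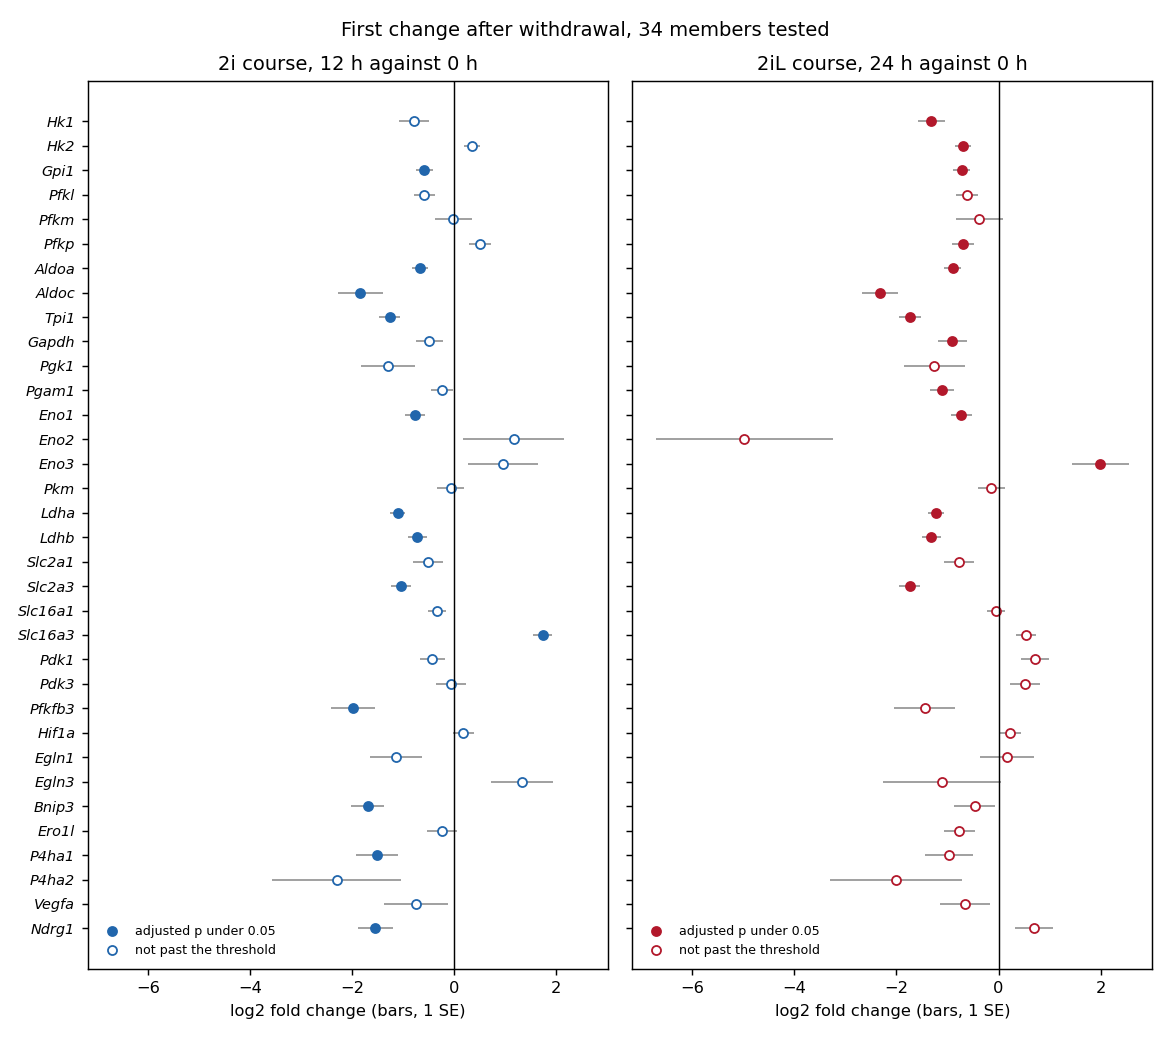
Log2 fold change (points) with its standard error (bars) of the 34 tested members at 12 h of the 2i course (left) and 24 h of the 2iL course (right), each against 0 h of its course. Filled points passed an adjusted p of 0.05, and 12 of them on the left and 13 on the right lie below 0. Slc16a3 on the left and Eno3 on the right are the filled points above 0, and Eno2 on the right had 0 counts at 24 h, so its fitted value is no measure of size.

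A single gene rose in each course. Slc16a3, the lactate exporter MCT4, stood at 124 and 114 CPM at 2i 0 h and at 383 and 412 CPM at 12 h (1.73 ± 0.18, adjusted p = 6.6e-08). In 2iL it stood at 88.8 and 87.8 CPM at 0 h and at 146 and 108 CPM at 24 h (0.53 ± 0.19, adjusted p = 0.07). Eno3, the muscle enolase, rose in 2iL from 2.903 and 1.32 CPM to 6.16 and 11.7 CPM (2.00 ± 0.56, adjusted p = 0.016), a call lost with DESeq2 (2.04, adjusted p = 0.055), with the 2iL libraries fitted alone (2.00, adjusted p = 0.052) and on leaving out 2iL 0 h replicate 2 (change 1.52, adjusted p = 0.16) or 2iL 24 h replicate 2 (change 1.51, adjusted p = 0.23). Slc16a1, the monocarboxylate carrier MCT1, changed by -0.34 in 2i (adjusted p = 0.23) and -0.05 in 2iL (adjusted p = 0.9). Hif1a, which encodes the oxygen-regulated HIF subunit, changed by 0.18 (adjusted p = 0.65) and 0.23 (adjusted p = 0.52).

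The make-up of the libraries moved at the same times. Gm42418, a predicted gene whose locus holds ribosomal RNA sequence, took 13.96% and 16.1% of the counts at 2i 0 h and 29.3% and 36.7% at 12 h. In 2iL it took 8.86% and 10.4% at 0 h and 23.9% and 24.7% at 24 h. Messages of ribosomal proteins went from 10.6% and 10.3% to 6.83% and 5.58% in 2i, and from 11.03% and 11.4% to 7.35% and 6.43% in 2iL. The members' share of all counts was 0.482% and 0.458% at 2i 0 h and 0.327% and 0.263% at 12 h. With Gm42418 taken out of the total the members' share was 0.561% and 0.545% at 2i 0 h and 0.463% and 0.416% at 12 h. In 2iL that share was 0.545% and 0.538% at 0 h and 0.333% and 0.344% at 24 h. On both measures the early libraries stayed below the 0 h libraries of their course.

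Other scalings kept the direction of the early fall and changed its extent. Library totals alone leave the rise of Gm42418 in the scale. With them 18 members fell in 2i and 17 in 2iL (12.5% and 10.3% of all tested genes fell). The median of all tested genes then moved to -0.34 and -0.25. With the most abundant, mitochondrial and ribosomal RNA-holding genes left out of the scaling, 13 fell in each course (6.12% and 6.55% of all). The member medians were -0.65 and -0.79. Scaling by a list of reference genes gave 9 falls in 2i and 15 in 2iL (4.47% and 8.59% of all tested genes fell). The median of all tested genes was then -0.04 and -0.26. In 2i this scaling ended the calls of Aldoa (-0.68, adjusted p = 0.061), Ldhb (-0.75, adjusted p = 0.058) and Gpi1 (-0.60, adjusted p = 0.11). Without the 4 libraries that stand apart 15 fell in 2iL (10.8% of all tested genes fell). In 2i this left 1 library at 12 h, with medians of -0.68 over the members and -0.05 over all tested genes. Among genes with a mean of at least 50 CPM, a background chosen after the data were seen, 7 of 16 members fell in 2i (7.88% of 3084 genes did) and 10 of 16 in 2iL (7.0% of 3084 genes did). The part of library composition in the fall beyond these scalings was not tested.

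**Figure D3:**
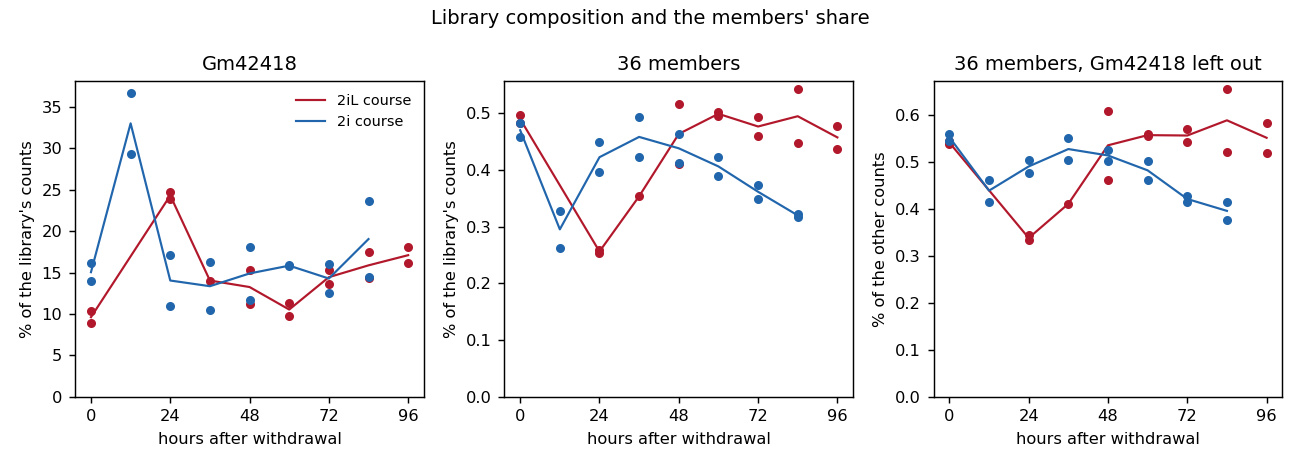
Share of counts taken by Gm42418 (left) and by the 36 members (middle), and the members' share of the counts that remain without Gm42418 (right), by hours after withdrawal. Points are libraries, lines join group means (2iL red, 2i blue), and vertical axes start at 0. Gm42418 is highest at 12 h in 2i and 24 h in 2iL, and the members' share is lowest at 24 h in 2iL, at 0.253% of all counts and 0.333% of the others.

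Over the whole course, with the 7 later times tested jointly against 0 h, 26 of 34 members changed in 2i (52.2% of all tested genes did) and 29 in 2iL (56.5% of all tested genes did). From the first time to the last, 9 members rose and 10 fell in the 2i course (17.7% of all tested genes rose and 18.3% fell at 84 h against 12 h), with a median of 0.02 over the members and 0.07 over all tested genes. In the 2iL course 16 rose and 5 fell (20.5% of all tested genes rose and 20.1% fell at 96 h against 24 h), with medians of 0.71 and 0.03. These comparisons start from the low early libraries. Against 0 h, 4 members had risen and 15 had fallen at 2i 84 h (16.6% of all tested genes rose and 16.6% fell), with a median of -0.61. At 2iL 96 h 8 had risen and 7 had fallen (19.4% of all tested genes rose and 20.1% fell), with a median of 0.18. Single libraries moved some of these counts. At 2i 84 h against 12 h most of the rises and of the falls lost their call with some single library left out. So did most of the rises at 2i 84 h against 0 h. The falls at 2i 84 h against 0 h, and both directions at 2iL 96 h, lost part of their calls in this way. Without 2i 12 h replicate 1, 5 rose at 2i 84 h against 12 h, and without 2i 84 h replicate 1, 5 fell. Against 0 h, 2 rose at 2i 84 h without 2i 0 h replicate 2 or 2i 84 h replicate 1, and 5 rose at 2iL 96 h without 2iL 0 h replicate 2. The late splits also depend on the scaling. With library totals alone 14 rose and 5 fell at 2i 84 h against 12 h (33.4% of all tested genes rose), where the median of all tested genes was 0.58. With the reference genes 23 rose and 2 fell at 2iL 96 h against 24 h (35.7% of all tested genes rose), and 13 rose and 4 fell at 2iL 96 h against 0 h (26.5% of all tested genes rose), with the median of all tested genes at 0.61 and 0.34.

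The hexokinases, at the entry to the pathway, ended low in both courses. Hk1 (ENSMUSG00000037012, chr10:62268855-62379908) went from 40.8 and 35.6 CPM at 2i 0 h to 13.2 and 12.3 CPM at 84 h (-1.59 ± 0.30, adjusted p = 0.00013) and from 95.4 and 92.2 CPM at 2iL 0 h to 9.696 and 11.6 CPM at 96 h (-3.11 ± 0.29, adjusted p = 4.4e-10). Hk2 (ENSMUSG00000000628, chr6:82725025-82774454) fell in the 2iL course, from 510.2 and 525 CPM to 177 and 161 CPM (-1.62 ± 0.15, adjusted p = 4.9e-10). In the 2i course, where Hk2 started low, it stood at 147 and 135 CPM at 84 h against 171 and 143 CPM at 0 h (-0.16 ± 0.15, adjusted p = 0.44), and the joint test gave adjusted p = 0.093. At 84 h of the 2iL course the level was 206 and 184 CPM. The gap between the media at 0 h was smaller at 84 h, a difference in levels that was not tested.

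The phosphofructokinase genes moved apart. Pfkp, the platelet-type enzyme (ENSMUSG00000021196, chr13:6579768-6648777), stood at 205 and 168 CPM at 2i 0 h, 254 and 276 CPM at 12 h, 74.7 and 98.8 CPM at 24 h and 27.6 and 21.2 CPM at 36 h, and ended at 11.3 and 10.7 CPM (-4.08 ± 0.29, adjusted p = 2.3e-12). In the 2iL course it stood at 280.0 and 279 CPM at 0 h and 138 and 70.7 CPM at 48 h, and ended at 34.9 and 29.1 CPM (-3.14 ± 0.25, adjusted p = 1.4e-11). Both courses ended far below their start. Pfkl, the liver-type enzyme (ENSMUSG00000020277, chr10:77986947-78010083), stood at 59.3 and 56.5 CPM at 2iL 0 h, 38.5 and 36.97 CPM at 24 h and 109 and 92.2 CPM at 96 h, above its start (0.79 ± 0.19, adjusted p = 0.0014). In the 2i course it ended at 74.8 and 83.4 CPM against 89.4 and 70.6 CPM at 0 h, and the groups overlap (-0.02 ± 0.19, adjusted p = 0.95). Pfkm, the muscle-type enzyme, lay between 4.76 and 22.7 CPM in all libraries and changed by -0.95 at 2i 84 h (adjusted p = 0.056) and 0.42 at 2iL 96 h (adjusted p = 0.4).

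Most of the middle enzymes dipped early, and several ended below their start. Aldoa, the main aldolase, stood at 309 and 354 CPM at 2i 84 h against 775 and 727 CPM at 0 h (-1.18 ± 0.17, adjusted p = 1.4e-06). Gpi1, the isomerase after hexokinase, stood at 218 and 251 CPM against 501 and 451 CPM (-1.02 ± 0.16, adjusted p = 1.1e-05). Pgam1, phosphoglycerate mutase, stood at 42.8 and 46.5 CPM against 81.5 and 84.3 CPM (-0.89 ± 0.22, adjusted p = 0.0023). They were also lower at 2iL 96 h than at 0 h, but with calls that were lost in some alternatives. Aldoa stood at 498 and 434 CPM against 629 and 686 CPM (-0.50 ± 0.16, adjusted p = 0.015), lost on leaving out 2iL 0 h replicate 2 (change -0.42, adjusted p = 0.13) or 2iL 96 h replicate 2 (change -0.40, adjusted p = 0.12) and in 6 other alternatives (adjusted p 0.052 to 0.69). Gpi1 stood at 303 and 265 CPM against 425 and 432 CPM (-0.59 ± 0.16, adjusted p = 0.0041), lost on leaving out 2iL 96 h replicate 2 (change -0.50, adjusted p = 0.052) and with reference-gene scaling (-0.22, adjusted p = 0.47). Pgam1 stood at 61.4 and 50.4 CPM against 84.6 and 105 CPM (-0.77 ± 0.21, adjusted p = 0.0044), lost on leaving out 2iL 0 h replicate 2 (change -0.59, adjusted p = 0.092) or 2iL 96 h replicate 2 (change -0.62, adjusted p = 0.065) and with reference-gene scaling (-0.42, adjusted p = 0.24). For these genes both last libraries lay below both 0 h libraries in each course. Eno1 in the 2i course stood at 227 and 201 CPM at 0 h, 184 and 194 CPM at 36 h and 69.8 and 82.3 CPM at 84 h (-1.49 ± 0.20, adjusted p = 4.9e-07). In the 2iL course Eno1 stood at 129.8 and 132 CPM at 0 h, 274 and 204 CPM at 60 h and 151 and 117 CPM at 96 h (0.03 ± 0.19, adjusted p = 0.93 against 0 h). Tpi1 stood at 116 and 118 CPM at 2iL 72 h and 95.4 and 83.7 CPM at 2i 48 h, against its early lows given above. At 2i 84 h it was below 0 h (-0.70 ± 0.19, adjusted p = 0.0052), a call lost on leaving out 2i 0 h replicate 1 (change -0.53, adjusted p = 0.12) or 2i 84 h replicate 1 (change -0.51, adjusted p = 0.12) and in 2 other alternatives (adjusted p 0.08 to 0.088). Gapdh, between 17.5 and 55.3 CPM, passed no threshold at the last time of either course against 0 h (adjusted p = 0.089 and adjusted p = 0.37), and neither did Pgk1, between 0.973 and 9.85 CPM (adjusted p = 0.081 and adjusted p = 0.97).

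Pkm, the pyruvate kinase of the last step, differed between partner libraries. It stood at 1271 and 667 CPM at 2iL 48 h, 682 and 1559 CPM at 2iL 84 h and 1069.8 and 622 CPM at 2iL 96 h. In each of these 3 groups the higher value is in a library that stands apart from its partner. Its rise at 2iL 96 h against 24 h (0.71 ± 0.27, adjusted p = 0.034) was lost on leaving out 2iL 24 h replicate 1 (change 0.85, adjusted p = 0.068), 2iL 24 h replicate 2 (change 0.65, adjusted p = 0.16) or 2iL 96 h replicate 1 (change 0.29, adjusted p = 0.47), and with the 4 deviating libraries left out (0.33, adjusted p = 0.085) or the 2iL libraries fitted alone (0.72, adjusted p = 0.11). In the 2i course Pkm stood at 763 and 806 CPM at 0 h and 452 and 511 CPM at 84 h (-0.70 ± 0.27, adjusted p = 0.042), a call lost on leaving out any 1 of 4 libraries (-0.78 to -0.59, adjusted p 0.11 to 0.23), with DESeq2 (-0.61, adjusted p = 0.1), with all 32 libraries (-0.68, adjusted p = 0.062) and under other scalings, such as library totals alone (-0.51, adjusted p = 0.11) and reference genes (-0.54, adjusted p = 0.19). The counts join all Pkm transcripts, so the M1 and M2 forms of the enzyme are not separated.

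Lactate dehydrogenase and the sugar and lactate carriers had wide swings. Ldhb, the subunit that favours pyruvate (ENSMUSG00000030246, chr6:142490249-142507957), fell through both courses, from 212 and 216 CPM at 2i 0 h to 28.3 and 33.1 CPM at 84 h (-2.79 ± 0.21, adjusted p = 9.6e-12) and from 270.0 and 276 CPM at 2iL 0 h to 50.4 and 46.1 CPM at 96 h (-2.5 ± 0.20, adjusted p = 2e-11). Ldha (ENSMUSG00000063229, chr7:46841475-46855627) instead went from its early low to 818 and 823 CPM at 2i 48 h and 843 and 784 CPM at 2iL 72 h. It then stood at 379 and 416 CPM at 2i 84 h, a fall from 36 h (-0.74 ± 0.15, adjusted p = 0.00032), and at 562 and 495 CPM at 2iL 96 h, a fall from 60 h (-0.63 ± 0.15, adjusted p = 0.0015). Scaling by the reference genes ended both of these late calls (-0.28, adjusted p = 0.34, and -0.20, adjusted p = 0.5). The comparisons with 36 h and 60 h were added after the levels had been seen. In them 4 members rose and 12 fell at 2i 84 h (16.2% of all tested genes rose and 15.8% fell), and 5 rose and 8 fell at 2iL 96 h (16.7% of all tested genes rose and 16.6% fell).

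Slc2a1, the ubiquitous glucose transporter GLUT1 (ENSMUSG00000028645, chr4:119108711-119137983), was high in mid-course. In 2i it stood at 50.3 and 40.5 CPM at 0 h, 28.7 and 36.1 CPM at 12 h, 107 and 96.6 CPM at 24 h, 294 and 259 CPM at 48 h and 93.1 and 79.1 CPM at 84 h. The end was above the start (0.91 ± 0.25, adjusted p = 0.0054), a call lost on leaving out 2i 0 h replicate 2 (change 0.77, adjusted p = 0.06). In 2iL it stood at 50.2 and 45.5 CPM at 0 h, 49.8 CPM at 36 h in the 1 library used, 251 and 241 CPM at 72 h and 119.6 and 229.8 CPM at 96 h (1.88 ± 0.24, adjusted p = 1.9e-07 against 0 h). Slc2a3 (ENSMUSG00000003153, chr6:122727809-122801640) took the reverse path, down and then up. Its lows were 35.2 and 39.2 CPM at 2i 24 h and 20.04 and 17.2 CPM at 2iL 48 h. At the end it stood at 238 and 259 CPM in 2i, up from 42.6 and 35.9 CPM at 36 h (2.66 ± 0.22, adjusted p = 1.5e-10), and at 338 and 395 CPM in 2iL, up from 28.4 and 27.1 CPM at 60 h (3.72 ± 0.23, adjusted p = 3.7e-13). At 2iL 96 h its change against 0 h passed no threshold (-0.20 ± 0.19, adjusted p = 0.42). At 2i 84 h it was still below 0 h (-0.65 ± 0.19, adjusted p = 0.0089), a call lost on leaving out 2i 0 h replicate 1 (change -0.50, adjusted p = 0.14) or 2i 84 h replicate 1 (change -0.57, adjusted p = 0.094) and in 2 other alternatives (adjusted p 0.11 to 0.14).

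Slc16a3 (ENSMUSG00000025161, chr11:120948480-120960868) was highest at 699 and 825 CPM at 2i 24 h and ended at 139.6 and 117 CPM, with a change against 0 h that passed no threshold (0.10 ± 0.19, adjusted p = 0.71). Its fall from 36 h to 84 h passed (-2.18 ± 0.19, adjusted p = 1.7e-10). In 2iL the gene had reached 423 CPM by 36 h, 827 and 556 CPM at 48 h and 344 and 286 CPM at 96 h, still above 0 h (1.83 ± 0.19, adjusted p = 2.5e-09) and below 60 h (-1.01 ± 0.17, adjusted p = 5.4e-05). With reference-gene scaling the fall from 60 h passed no threshold (-0.58, adjusted p = 0.065). Slc16a1 lay between 67.4 and 121 CPM in all libraries and passed neither joint test (adjusted p = 0.076 in 2i and adjusted p = 0.33 in 2iL).

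**Figure D4:**
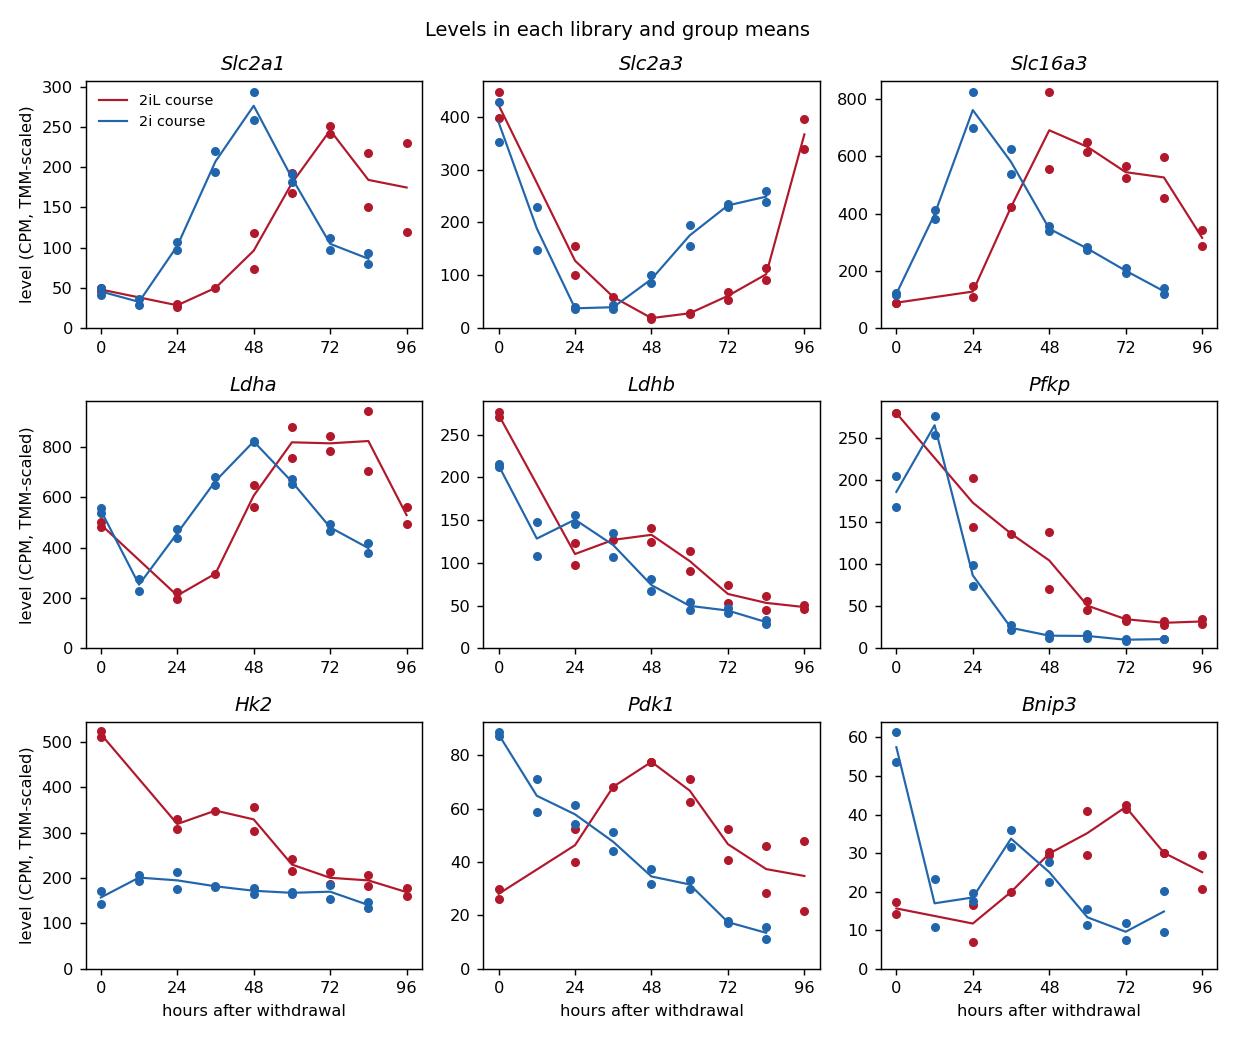
Levels in CPM (vertical axes from 0) of 9 members in each library (points) and as group means (lines), by hours after withdrawal of 2i (blue) or 2iL (red). Slc2a1 and Slc16a3 are highest in mid-course, at 48 h and 24 h in 2i and at 72 h and 48 h in 2iL, and Slc2a3 is lowest at 24 h in 2i and 48 h in 2iL.

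Among the kinases that switch the pathway, Pdk1 went down in the course where it had started high. In 2i it stood at 88.6 and 87.05 CPM at 0 h, 71.1 and 58.6 CPM at 12 h, 37.4 and 31.8 CPM at 48 h and 15.7 and 11.2 CPM at 84 h (-2.71 ± 0.29, adjusted p = 8.6e-09). In 2iL it stood at 26.1 and 30.01 CPM at 0 h, 77.5 and 77.5 CPM at 48 h and 47.8 and 21.7 CPM at 96 h. The last libraries overlap the first in 2iL, and their change passed no threshold (0.25 ± 0.27, adjusted p = 0.49). The fall from 60 h to 96 h in 2iL (-1.0 ± 0.25, adjusted p = 0.0032) was lost on leaving out 2iL 96 h replicate 2 (change -0.47, adjusted p = 0.17) and with reference-gene scaling (-0.54, adjusted p = 0.18). Pdk3, another kinase of pyruvate dehydrogenase, lay between 16.1 and 39.7 CPM and passed neither joint test (adjusted p = 0.43 in 2i and adjusted p = 0.32 in 2iL). Pfkfb3 went from 15.8 and 19.7 CPM at 2i 0 h to 4.1001 and 4.88 CPM at 12 h and stood at 12.6 and 12.3 CPM at 84 h (-0.50 ± 0.33, adjusted p = 0.26 against 0 h). Pfkfb4, its relative, had at most 3.23 CPM in any library and was not tested.

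Genes of the hypoxia response did not share a course. Hif1a had its lowest level, 102 CPM, at 2iL 0 h, and rose in 2iL from 117 and 102 CPM at 0 h to 232 and 189.5 CPM at 96 h (0.94 ± 0.20, adjusted p = 0.00037). In 2i its change to 84 h passed no threshold (0.46 ± 0.20, adjusted p = 0.073). Bnip3 stood at 61.3 and 53.7 CPM at 2i 0 h and 9.43 and 20.3 CPM at 84 h (-1.92 ± 0.31, adjusted p = 1.2e-05). In 2iL it stood at 14.1 and 17.2 CPM at 0 h, 41.5 and 42.4 CPM at 72 h and 20.7 and 29.5 CPM at 96 h (0.71 ± 0.32, adjusted p = 0.075 against 0 h). Ndrg1 fell in 2i from 36.01 and 41.1 CPM to 2.52 and 4.81 CPM (-3.34 ± 0.40, adjusted p = 1e-07). In 2iL its fall from 24 h to 96 h (-1.23 ± 0.40, adjusted p = 0.015) was lost on leaving out 2iL 24 h replicate 1 (change -0.84, adjusted p = 0.22) or 2iL 96 h replicate 1 (change -0.84, adjusted p = 0.14), and with DESeq2 (-1.17, adjusted p = 0.061), library totals alone (-0.94, adjusted p = 0.076), reference-gene scaling (-0.70, adjusted p = 0.17) and the 4 deviating libraries left out (-0.81, adjusted p = 0.11).

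Vegfa, the angiogenic factor, ended above its start in both courses. In 2i its log2 level was above 0 h by 1.22 at 48 h, 1.52 at 60 h and 1.47 at 84 h. Its mean was highest at 60 h in 2i (16.5 CPM) and at 84 h in 2iL (28.8 CPM). In 2i it stood at 6.73 and 3.83 CPM at 0 h and 18.9 and 13.4 CPM at 84 h (1.54 ± 0.43, adjusted p = 0.0064), a call lost on leaving out 2i 0 h replicate 2 (change 1.24, adjusted p = 0.066) or 2i 84 h replicate 1 (change 1.31, adjusted p = 0.071). In 2iL it stood at 13.3 and 7.06 CPM at 0 h, 1.64 and 1.997 CPM at 48 h and 28.4 and 22.1 CPM at 96 h, a rise from 60 h (2.26 ± 0.40, adjusted p = 7.9e-05). Its rise over 2iL 0 h (1.28 ± 0.36, adjusted p = 0.0054) was lost on leaving out 2iL 0 h replicate 2 (change 0.93, adjusted p = 0.1). P4ha1 stood at 41.5 and 37.2 CPM at 2i 0 h, 2.44 and 5.705 CPM at 24 h and 26.4 and 19.2 CPM at 84 h, a rise from 36 h (2.22 ± 0.50, adjusted p = 0.0011). Its relative P4ha2 had few counts, with 1 at 2i 12 h and 18 at 84 h, a ratio of 12.9 (95% counting interval 2.04 to 539), and this rise was lost on leaving out 2i 12 h replicate 1 (change 2.36, adjusted p = 0.18). In 2iL it had 1 count at 24 h and 27 at 96 h, a ratio of 15.2 (95% counting interval 2.51 to 623), lost on leaving out 2iL 24 h replicate 2 (change 2.99, adjusted p = 0.063).

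Egln3, a prolyl hydroxylase that is itself a HIF target, had 2 counts at 2iL 24 h and 35 at 96 h, a ratio of 9.86 (95% counting interval 2.53 to 84.6) (adjusted p = 0.0048). This rise was lost on leaving out 2iL 24 h replicate 2 (change 2.42, adjusted p = 0.065). Its rise over 2iL 0 h (2.12 ± 0.62, adjusted p = 0.007) was lost on leaving out 2iL 0 h replicate 2 (change 1.36, adjusted p = 0.13). Egln1, a main oxygen sensor of the family, rose at 2i 84 h against 12 h (1.38 ± 0.51, adjusted p = 0.032), a call lost on leaving out 2i 12 h replicate 1 (change 1.21, adjusted p = 0.19), 2i 12 h replicate 2 (change 1.54, adjusted p = 0.072) or 2i 84 h replicate 2 (change 0.94, adjusted p = 0.27). Over the whole 2i course Egln1 passed edgeR's joint test (adjusted p = 0.00095). Its lowest mean in 2i was 2.42 CPM at 24 h and its highest 17.8 CPM at 84 h. Ero1l, an oxidase of the endoplasmic reticulum, lay between 10.7 and 24.3 CPM and passed neither joint test (adjusted p = 0.87 in 2i and adjusted p = 0.077 in 2iL). Ankrd37, a HIF target that was not tested, had 18 counts at 2iL 0 h and 2 at 2i 0 h, a ratio of 8.38 (95% counting interval 2.01 to 74.5).

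Eno2, the neuronal enolase, had its highest mean at 72 h in 2i and at 96 h in 2iL. It had 0 counts in both 2iL 24 h libraries and 56 at 96 h (19.4 and 10.1 CPM), at least 10.5-fold higher against a floor of 3 counts over the group (adjusted p = 4.5e-06). At 2iL 84 h it still stood at 2.596 and 3.22 CPM. In 2i it had 3 counts at 0 h and 30 at 84 h, a ratio of 12.6 (95% counting interval 3.91 to 64.4) (adjusted p = 0.00014). Aldoc, the brain-type aldolase, had its highest level at 0 h in both courses. It stood at 35.7 and 29.1 CPM at 2iL 0 h, 5.39 and 7.78 CPM at 24 h and 21.3 and 25.6 CPM at 96 h, a rise from 24 h (1.86 ± 0.37, adjusted p = 0.00016). Both 96 h libraries lay below both 0 h libraries, but the change of Aldoc against 2iL 0 h passed no threshold. In 2i it stood at 16.2 and 9.31 CPM at 0 h and 7.55 and 5.34 CPM at 84 h (-1.03 ± 0.36, adjusted p = 0.026), a call lost on leaving out 2i 0 h replicate 1 (change -0.54, adjusted p = 0.45) or 2i 84 h replicate 2 (change -0.76, adjusted p = 0.23) and in 5 other alternatives (adjusted p 0.05 to 0.16). The early neural markers were higher at the last times, with the sums given above, and their part in these rises, that of Vegfa included, was not tested.

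The exchange of isoforms was tested within libraries, as the log2 ratio of (CPM + 1) of 2 genes, which the scaling hardly moves. For each pair the libraries at 48 h and later were set against those at 0 h within each course by an exact two-sided permutation test with 2970 relabellings. The smallest p it can give is 0.00034, or 0.00081 after adjustment over the 12 pairs tested, and 9 pairs passed. The test treats each library as a separate unit. The 2 libraries of a group may be technical, and the late set joins several times, so these p-values may be too small. A relabelling of whole groups, which allows fewer relabellings, was not run. The change of a ratio is read here and not its level. Hk1/Hk2, Pfkp/Pfkl, Ldhb/Ldha, Slc2a3/Slc2a1, Slc16a3/Slc16a1 and P4ha2/P4ha1 kept their call under the alternatives run for them.

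Pfkp lost ground to Pfkl. The ratio was 1.19 and 1.23 at 2i 0 h and -2.85 to -2.13 from 48 h on, and 2.22 and 2.29 at 2iL 0 h and -1.95 to 0.55 from 48 h on. The mean change over the courses was -3.61 (exact permutation p = 0.00034, adjusted p = 0.00081). Ldhb lost ground to Ldha by -2.30 and Hk1 to Hk2 by -1.74, both with the smallest p possible in the exact test. In 2iL both hexokinase genes fell, Hk1 by more. Slc2a3 lost ground to Slc2a1 by -3.63 (exact permutation p = 0.00034, adjusted p = 0.00081), and from 72 h on, after part of the way back, the change was -2.71. For these 4 pairs the late libraries of each course did not overlap those at 0 h. The P4ha2/P4ha1 ratio rose by 1.96 (exact permutation p = 0.00034, adjusted p = 0.00081). P4ha2 averaged 2.9 CPM, near the pseudocount of 1, which limits this ratio. In 2iL P4ha2 had itself changed by -0.19 at 48 h, -0.70 at 60 h and 0.50 at 84 h against 0 h. P4ha1 had changed by -1.82, -1.58 and -1.01. In 2i at 60 h P4ha2 had changed by 1.16 and P4ha1 by -1.81. Slc16a3 gained on Slc16a1 by 1.84 (exact permutation p = 0.00067, adjusted p = 0.0013), where Slc16a1 itself passed no joint test. In 2i this gain did not last. The ratio was 0.037 and 0.262 at 0 h and 0.69 and 0.257 at 84 h, so the late libraries overlap those at 0 h. In 2iL it was 0.014 and 0.247 at 0 h and 1.43 to 3.24 from 48 h on.

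The other pairs changed less or rested on single libraries. Pfkm/Pfkl changed by -0.77 (exact permutation p = 0.0071, adjusted p = 0.012), a call lost on leaving out 2iL 0 h replicate 1 (change -0.73, adjusted p = 0.051) or 2i 0 h replicate 2 (change -0.66, adjusted p = 0.083). Eno3/Eno1 changed by 1.11 (exact permutation p = 0.01, adjusted p = 0.016), a call lost on leaving out 2iL 0 h replicate 2 (change 0.92, adjusted p = 0.091) or 2i 0 h replicate 1 (change 0.99, adjusted p = 0.09). Egln3/Egln1 changed by 1.30 (exact permutation p = 0.02, adjusted p = 0.026), a call lost on leaving out 2iL 0 h replicate 2 (change 0.99, adjusted p = 0.12), 2i 0 h replicate 1 (change 1.22, adjusted p = 0.09) or 2i 0 h replicate 2 (change 1.39, adjusted p = 0.051), and from 72 h on it was 0.66 (adjusted p = 0.06). Aldoc/Aldoa (-0.42, adjusted p = 0.2), Eno2/Eno1 (1.39, adjusted p = 0.12) and Pdk3/Pdk1 (0.60, adjusted p = 0.2) passed no threshold by the same exact permutation test. The mean of the last pair joins opposite courses, from -1.63 at 0 h to 0.12 late in 2i and from -0.46 to -1.01 in 2iL.

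**Figure D5:**
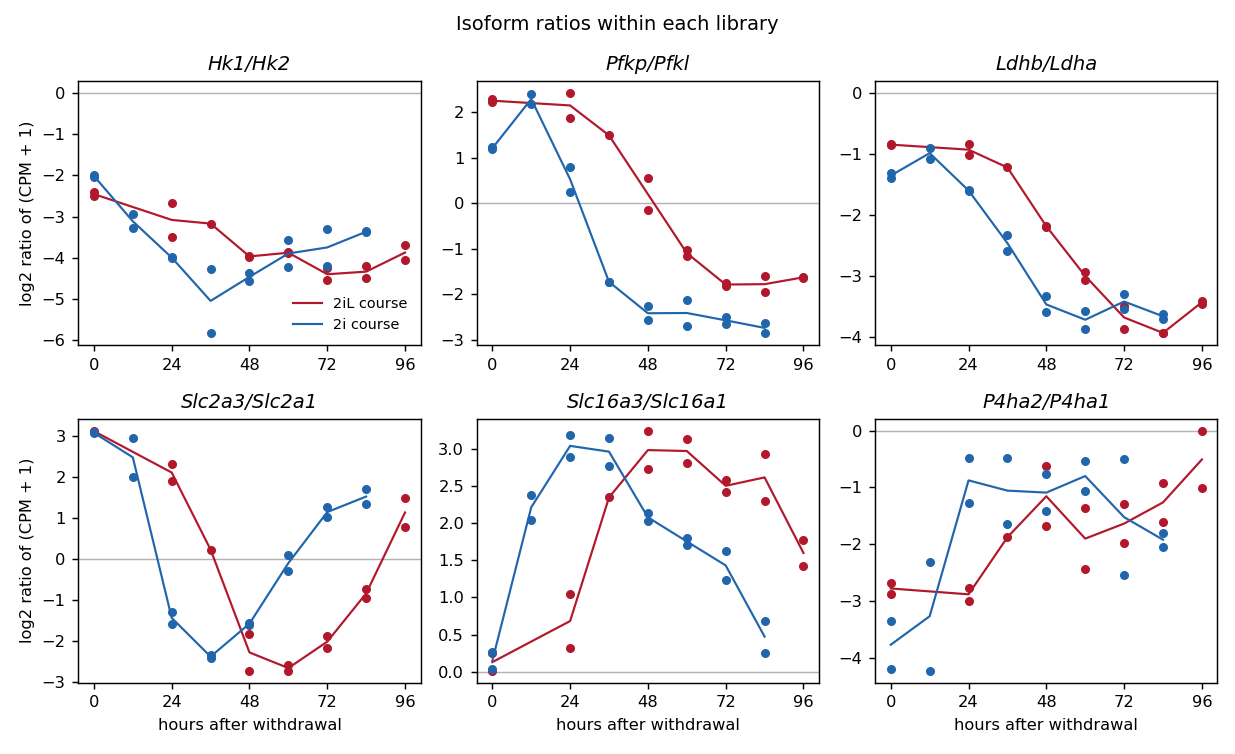
Log2 ratio of (CPM + 1) of 6 isoform pairs in each library (points) and as group means (lines), by hours after withdrawal of 2i (blue) or 2iL (red), with a grey line at a ratio of 0. Pfkp/Pfkl and Ldhb/Ldha are lower at 36 h in 2i than in 2iL and low in both at the end, while Slc2a3/Slc2a1 goes down and partly returns.

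The start regions of 6 of these genes are printed to set the exchanged lactate dehydrogenase and phosphofructokinase isoforms side by side with 2 carriers that were high in mid-course. Each is the 250 bases before the gene's start in RefSeq on GRCm38.p6, read 5′ to 3′ on the gene's strand. Capitals mark ACGTG or GCGTG, the core letters of the element that HIF is known to bind, on either strand (CACGT or CACGC where the match is on the other strand). The E-box CACGTG holds ACGTG on both strands, so such matches overlap.
Ldha promoter, chr7:46845554-46845803, plus strand: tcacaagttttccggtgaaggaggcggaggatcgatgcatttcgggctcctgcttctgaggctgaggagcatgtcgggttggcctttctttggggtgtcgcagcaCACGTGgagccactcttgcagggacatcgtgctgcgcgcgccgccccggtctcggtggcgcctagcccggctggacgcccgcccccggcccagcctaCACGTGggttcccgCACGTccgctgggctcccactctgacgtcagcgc
Ldhb promoter, chr6:142507958-142508207, minus strand: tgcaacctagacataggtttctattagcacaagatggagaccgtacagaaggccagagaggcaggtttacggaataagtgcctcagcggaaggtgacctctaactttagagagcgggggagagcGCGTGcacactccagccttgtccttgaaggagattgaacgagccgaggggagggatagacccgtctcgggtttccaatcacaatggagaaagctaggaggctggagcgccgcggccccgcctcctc
Pfkp promoter, chr13:6648772-6649021, minus strand: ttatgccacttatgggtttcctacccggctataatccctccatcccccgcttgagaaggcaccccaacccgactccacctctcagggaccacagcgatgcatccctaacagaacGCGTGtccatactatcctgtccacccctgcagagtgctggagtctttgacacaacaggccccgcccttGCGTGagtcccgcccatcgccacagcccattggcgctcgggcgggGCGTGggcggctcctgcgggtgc
Pfkl promoter, chr10:78009808-78010057, minus strand: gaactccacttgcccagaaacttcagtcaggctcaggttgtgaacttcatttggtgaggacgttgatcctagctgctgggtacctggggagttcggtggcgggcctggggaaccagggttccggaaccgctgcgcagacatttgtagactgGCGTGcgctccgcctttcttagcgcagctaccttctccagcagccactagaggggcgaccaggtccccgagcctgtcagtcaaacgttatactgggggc
Slc2a1 promoter, chr4:119108495-119108744, plus strand: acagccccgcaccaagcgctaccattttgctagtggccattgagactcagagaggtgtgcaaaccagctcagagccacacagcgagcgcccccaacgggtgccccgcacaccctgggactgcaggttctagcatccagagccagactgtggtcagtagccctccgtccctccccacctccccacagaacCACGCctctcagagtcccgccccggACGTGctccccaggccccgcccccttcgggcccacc
Slc16a3 promoter, chr11:120948817-120949066, plus strand: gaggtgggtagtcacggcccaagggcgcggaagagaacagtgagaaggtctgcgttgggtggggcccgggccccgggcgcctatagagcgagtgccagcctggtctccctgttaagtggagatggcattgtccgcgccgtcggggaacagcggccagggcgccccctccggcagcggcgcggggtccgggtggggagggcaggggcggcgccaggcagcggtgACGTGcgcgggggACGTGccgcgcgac

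Ldha holds 5 matches of ACGTG, counted on both strands, and 2 of CACGTG, while Ldhb holds 1 of GCGTG. Pfkp, which fell, holds 3 of GCGTG, and Pfkl holds 1. Slc2a1 holds 1 of each core, and Slc16a3 holds 2 of ACGTG. RefSeq gave a promoter for 33 of the 36 members, and 17 of them (51.5%) held ACGTG, as 16.6% of all 27025 promoters of this length did. GCGTG was in 18 members (54.5%, against 28.2% of all), either core in 26 (78.8%, against 38.6%) and CACGTG in 5 (15.2%, against 6.05%). The members were picked as known pathway genes, many of them known HIF targets, and no binding was measured, so these shares are a description of letters only.

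The 2 courses differed for 22 of the 34 members in the joint test of the difference in change over the 6 shared times (22.5% of all tested genes differed). Slc16a3 (adjusted p = 2.4e-13), Slc2a3 (adjusted p = 4.6e-12), Ldha (adjusted p = 2.8e-09) and Slc2a1 (adjusted p = 3.4e-09) had the smallest p among the members. At 24 h Slc16a3 had changed by 2.66 in 2i and 0.51 in 2iL, and at 84 h by 0.10 and 2.55. Slc2a1 had changed by 2.17 in 2i and 0.06 in 2iL at 36 h, and by 1.19 and 2.34 at 72 h. Slc2a3 had changed by -3.35 in 2i and -1.75 in 2iL at 24 h, and by -0.74 and -2.79 at 72 h. For these 3 carriers the change was larger in 2i at the earlier time given and larger in 2iL at the later one. Ldha had changed by -0.26 in 2i and -1.23 in 2iL at 24 h, and by -0.46 and 0.73 at 84 h, so its change was larger in 2iL at both times. The differences at single times were not tested.

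For Pdk1, Bnip3 and Eno1 the values at 84 h lay on opposite sides of their own 0 h level. Pdk1 had changed by -2.64 in 2i and 0.36 in 2iL (adjusted p = 2.7e-07 for the joint difference), Bnip3 by -1.97 and 0.91 (adjusted p = 3.5e-07) and Eno1 by -1.48 and 0.60 (adjusted p = 3.5e-07). These genes had started higher in 2i. Opposite signs at 84 h were also seen in genes not called at 0 h. Among them were Pkm (-0.705 in 2i and 0.863 in 2iL), Ldha (-0.46 and 0.73), Tpi1 (-0.70 and 0.10) and Gapdh (-0.53 and 0.17). Ndrg1, which had started higher in 2i, lay below 0 h in both (-3.13 and -1.17). Hk2, which had started higher in 2iL, had changed by 0.11 in 2i and -1.37 in 2iL at 72 h (adjusted p = 6.4e-05). Pfkp had changed by -3.55 in 2i and -1.49 in 2iL at 48 h, and by -3.96 and -3.17 at 84 h (adjusted p = 0.00016). The difference passed no threshold for Gpi1 (adjusted p = 0.2), Hif1a (adjusted p = 0.16) or Slc16a1 (adjusted p = 0.17).

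Lists of neighbouring pathways hold genes that are no members. Early changes against 0 h are given for 2i 12 h, then 2iL 24 h. Of 12 tested glycolytic genes outside the members 2 fell and 1 rose, then 2 and 0. Of 12 pyruvate entry genes 0 fell and 0 rose, then 1 and 0. Of 7 pentose phosphate genes 1 fell and 0 rose both times. Of 15 HIF machinery genes 0 fell and 1 rose both times. Of 27 other hypoxia targets 4 fell and 1 rose, then 4 and 2. Of all tested genes 5.36% fell and 5.42% rose, then 5.92% and 5.65%. The lists were also read at 2i 84 h against 12 h. In that comparison 17.7% of all tested genes rose and 18.3% fell. Among 12 tested glycolytic genes outside the members 3 fell, with Tigar, a phosphatase that lowers the activator of phosphofructokinase, at -1.64 ± 0.22, adjusted p = 5e-07. Pgam2, the muscle mutase, had 8 counts at 12 h and 0 at 84 h (at least 3.71-fold lower), a call lost without 2i 84 h replicate 2 (adjusted p = 0.056). Among 12 genes of pyruvate entry into mitochondria 4 fell, among them Mpc1, a subunit of the pyruvate carrier (-3.11 ± 0.79, adjusted p = 0.0025), lost on leaving out 2i 12 h replicate 1 (change -2.54, adjusted p = 0.069), and Pdp2, a phosphatase of pyruvate dehydrogenase (-0.97 ± 0.25, adjusted p = 0.0025), lost on leaving out 2i 12 h replicate 1 (change -0.77, adjusted p = 0.074). Among 7 genes of the pentose phosphate pathway Pgls rose (1.10 ± 0.27, adjusted p = 0.002) and 2 fell, Taldo1 (-0.81 ± 0.16, adjusted p = 0.00015) and Pgd (-0.55 ± 0.19, adjusted p = 0.021), the latter lost on leaving out 2i 12 h replicate 1 (change -0.50, adjusted p = 0.11) or 2i 84 h replicate 2 (change -0.36, adjusted p = 0.24).

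The HIF machinery outside the members had 2 rises and 5 falls among 15 tested genes. Epas1, which encodes the HIF-2 alpha subunit, rose early from a mean of 8.78 CPM to 44.6 CPM at 2i 12 h (2.34 ± 0.39, adjusted p = 0.00011) and from 7.69 CPM to 32.7 CPM at 2iL 24 h (2.08 ± 0.41, adjusted p = 0.00075). It then fell to 1.698 CPM at 2i 84 h (-4.66 ± 0.54, adjusted p = 4.3e-08). Elob, a partner of the VHL ligase, fell (-0.89 ± 0.17, adjusted p = 8.3e-05), Arnt2, a HIF partner, rose (3.04 ± 0.60, adjusted p = 0.00019), and the rise of Siah1a, a ubiquitin ligase (1.82 ± 0.68, adjusted p = 0.036), was lost on leaving out any 1 of 4 libraries (1.56 to 2.04, adjusted p 0.069 to 0.21). Among 27 other hypoxia targets tested 9 rose and 5 fell, against the shares of all tested genes given above. Ddit4, an inhibitor of mTOR signalling, fell early in 2i (-2.07 ± 0.42, adjusted p = 0.0012) and rose from a mean of 15.7 CPM at 12 h to 254 CPM at 84 h (3.93 ± 0.40, adjusted p = 4.6e-09). Bhlhe40, a repressor, had 3 counts at 12 h and 63 at 84 h (ratio 15.1, 95% counting interval 4.93 to 75.1). It too had fallen early in 2i, from a mean of 8.23 CPM at 0 h to 1.03 CPM at 12 h (adjusted p = 0.013). Its mean at 2i 84 h was 18.2 CPM. In 2iL it had 53 counts at 0 h and 0 at 24 h. Tmem45a had 19 counts at 12 h and 3 at 84 h (ratio 8.81, 95% counting interval 2.59 to 46.5), a fall lost on leaving out 2i 12 h replicate 1 (change -1.67, adjusted p = 0.31) or 2i 84 h replicate 2 (change -2.49, adjusted p = 0.058). Angptl4, a secreted lipase inhibitor, fell (-1.83 ± 0.59, adjusted p = 0.016), a call lost on leaving out 2i 12 h replicate 2 (change -1.42, adjusted p = 0.14) or 2i 84 h replicate 1 (change -1.42, adjusted p = 0.12).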

How the data were processed

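RNA was measured in 32 libraries, grouped by the labels' titles and treatments. For each library the authors deposited read counts, in whole numbers and restricted to unique alignments, of 31053 Ensembl gene IDs, followed by 5 summary lines. They also deposited a table of CPM. That CPM table, as deposited, was checked against the counts (largest difference 4.7e-10) and was otherwise not used. Per the submitters' processing notes, the tools were STAR 2.6.0a, HTSeq and bcl2fastq, and the build was mm10. The annotation release and strand setting are not given in the sources used here. Reads outside genes made up 23.4% to 55.4% of unique alignments and stayed out of library sizes. GENCODE M21 names 30934 of the gene IDs. Aldoa, a symbol that 2 IDs share, was matched by its RefSeq start.

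A single edgeR 4.0.16 fit (R 4.3.3) covered 31 libraries and 16 groups, with TMM factors, filterByExpr (12556 genes) and 15 residual degrees of freedom. Its quasi-likelihood test was adjusted over all of these genes (Benjamini-Hochberg). Alternatives were DESeq2 1.42.0, other scalings, no filter, other sets of libraries, the replicate number as a block, and each library left out in turn. Isoform ratios used a pseudocount of 1 and scipy 1.17.1. Floors are 3 counts over a group, and 95% counting intervals are exact (Clopper-Pearson) and cover counting error only. On data simulated for 2i 12 h against 0 h (12334 genes), 28.6% of 2-fold and 66.3% of 4-fold changes were recovered, with 6 false calls among 99.

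Members and lists were chosen with earlier results of these data known. All 36 members are named. From each other list the text names up to 2 falls and 2 rises with the largest change past the threshold at 2i 84 h against 12 h. The comparisons with 36 h and 60 h and the background of genes with at least 50 CPM were added after the values were seen.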

Additional observations from a re-analysis of the deposited data

Results flagged for a closer look

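For 22 members the change after withdrawal differed between the 2iL and 2i courses by edgeR's joint test over the 6 shared times (22.5% of all tested genes differed). Among the carriers and lactate dehydrogenase genes the adjusted p was 2.4e-13 for Slc16a3, 4.6e-12 for Slc2a3, 2.8e-09 for Ldha, 3.4e-09 for Slc2a1 and 0.0017 for Ldhb. Among the enzymes of glycolysis it was 3.5e-07 for Eno1, 1.7e-06 for Aldoa, 1.2e-05 for Tpi1, 6.4e-05 for Hk2, 7.9e-05 for Hk1, 0.00016 for Pfkl and 0.00016 for Pfkp. It was 0.0024 for Pkm, 0.0033 for Pgam1, 0.0048 for Eno2, 0.0095 for Gapdh and 0.037 for Pfkm. For the kinase Pdk1 it was 2.7e-07, and among the hypoxia-response genes 3.5e-07 for Bnip3, 3.7e-06 for Ndrg1, 9.8e-05 for Vegfa and 0.011 for Egln3. The difference was lost in single settings for Eno2 (adjusted p = 0.063 without 2iL 36 h replicate 1), Egln3 (adjusted p = 0.051 without 2iL 24 h replicate 2) and Gapdh (adjusted p = 0.077 without 2iL 24 h replicate 2), and for Pfkm without any of 15 libraries in turn (adjusted p 0.051 to 0.11). Groups of 2 libraries are too small to look for single outlying values.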

How the results depend on the processing

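Of the counts of members and isoform pairs and their medians, 311 alternative values kept their direction and stayed near the main value, and 21 moved. Leaving out 1 library at a time gave 3 to 5 rises in 2i against 2iL at 0 h, 6 to 11 falls at 2i 12 h and 0 to 1 rises at 2iL 24 h. It gave 5 to 8 rises and 5 to 8 falls at 2i 84 h against 12 h, 2 to 4 rises at 2i 84 h against 0 h and 5 to 9 rises at 2iL 96 h against 0 h. Fitting only the libraries of the course gave 11 rises and 5 falls in 2i against 2iL, 3 rises at 2i 12 h and 0 rises at 2iL 24 h. Without the 4 libraries that stand apart there were 11 rises in 2i against 2iL and 3 rises at 2iL 24 h, where DESeq2 gave 0. With library totals alone there were 14 rises and 5 falls at 2i 84 h against 12 h, and Hk2 (0.00), Aldoa (0.01) and Gpi1 (0.09) then no longer lay below 0. Reference-gene scaling gave 5 falls there, 2 falls at 2iL 96 h against 24 h, and 13 rises and 4 falls at 2iL 96 h against 0 h. The cause of these shifts was not tested. Replicate numbers do not pair the libraries, since correlations of same-numbered deviations ran from -0.385 to 0.422 over 105 pairs of groups. With the replicate block 212 results kept their call and 3 lost it: Pfkp at 2iL 96 h against 60 h (-0.67, adjusted p = 0.051), Eno3 in 2i (adjusted p = 0.054) and Egln1 in 2iL (adjusted p = 0.057), both in the joint test. Depth limits Pfkfb4, Ankrd37, P4ha2, Egln3 and Eno2, which had few or no counts in some groups.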
